A study of Rattus norvegicus with 11 samples.

Results

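The genes described here are the rat genes for antioxidant enzymes, for glutathione synthesis and use, and for metallothioneins, measured by microarray in hippocampus. They were chosen by gene symbol. The set takes every probe set whose single platform symbol begins with Gst, Gpx, Prdx, Txnrd, Glrx or Mgst, with Sod1, Sod2, Sod3, Cat, Txn1, Txn2, Txnip, Gclc, Gclm, Gsr, Gss, Nqo1, Nfe2l2, Keap1, Srxn1, Mt1, Mt2A and Mt3. This gave 61 probe sets for 56 genes among the 15923 probe sets of the array, and 53 of them were bright enough to be tested. The control group was 6 samples of total RNA from hippocampus of rats (Rattus norvegicus) on a control diet. The other group was 5 samples from rats on a ketogenic diet. Such a diet holds much fat and little carbohydrate and is used against seizures. The labels name no strain, age, sex, length of feeding or further treatment for either group. They do not say whether a sample is 1 animal or a pool, so the p-values below speak only of the variation among these samples, which may be technical.

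Cells remove superoxide with superoxide dismutases, which make hydrogen peroxide, and remove the peroxide with catalase, glutathione peroxidases and peroxiredoxins. Glutathione and thioredoxin supply the electrons for the peroxidases and peroxiredoxins and are reduced again at the expense of NADPH. Glutathione transferases couple glutathione to reactive molecules. Many of these genes respond to the transcription factor Nrf2 (Nfe2l2), which Keap1 holds in check. Metallothioneins are small cysteine-rich proteins that bind zinc and copper, and some of them are induced through the metal-sensing factor Mtf1. Mt3 is the metallothionein best known from brain, and hippocampal mossy fibre terminals are rich in vesicular zinc.

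Levels are log2 signals after quantile normalization between arrays, and a difference is the ketogenic mean minus the control mean on that scale. A gene or probe set is called higher or lower where limma gave an adjusted p under 0.05 (Benjamini-Hochberg over all 11899 tested probe sets). The array as a whole differed between diets, with 16.5% of the tested probe sets called. Of these calls 52.3% were higher on the ketogenic diet, or 38.3% without normalization between arrays. RNA quality was read from control probe sets at both ends of a transcript, where a higher 3 prime over 5 prime signal goes with more degraded RNA. The log2 of this ratio was -0.068 to 0.15 on control and 0.13 to 0.34 on ketogenic arrays for Gapdh, and 0.487 to 0.7498 against 0.7545 to 0.985 for actin (exact permutation test, adjusted p = 0.00649 and 0.00432). For actin every ketogenic array lay above every control array, so RNA quality and diet cannot be fully told apart in these arrays. A fit that holds both ratios therefore separates the 2 poorly. The bacterial spike-in level was higher on the ketogenic arrays by 0.30 (exact permutation test, adjusted p = 0.00649). The median log2 signal as deposited was 6.48 to 6.56 on control and 6.32 to 6.46 on ketogenic arrays, without overlap. Its difference was -0.14 (exact permutation test, adjusted p = 0.00432), and its part in results that move with the scaling was not tested. Ketogenic replicate 3 carries an added letter in its title that the labels do not explain, and its values are given apart where it decides a result. Neuronal genes were bright, with Snap25, a synaptic protein, at 11.60 and Prox1, a marker of dentate granule cells, at 8.21 on the control diet, above the floor of 2.33. These levels alone do not establish the brain region, which is taken from the label.

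Metallothioneins, an extracellular superoxide dismutase, a thioredoxin reductase and a glutaredoxin made up the calls among these genes. Of the 53 tested member probe sets 5 were called, or 9.43%, against 16.5% of all tested probe sets, and the difference between these shares was not tested. At an unadjusted p under 0.05 there were 14, or 26.4%, against 33.3% of all tested probe sets. Of the calls, 1 was higher and 4 were lower, against 8.62% higher and 7.87% lower over the array. The lower ones were Mt3 and Mt2A, Sod3, the extracellular superoxide dismutase, and Txnrd1, the cytosolic thioredoxin reductase. Glrx, the cytosolic glutaredoxin, was the higher one. The median difference was -0.00064 over the members and -0.0041 over all tested probe sets, and the median absolute difference was 0.12 and 0.17. The diet groups did not overlap for 2 members, or 3.77%, which were 1 with the ketogenic arrays above and 1 with them below. Over the array 6.99% did not overlap, 3.91% above and 3.08% below.

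The metallothionein genes Mt1, Mt2A and Mt3 lie next to one another on chromosome 19 with no other protein-coding gene between them in the RefSeq gene table. The 250 bases before the start of each gene are shown because all 3 carry the core of the metal response element, the sequence through which Mtf1 acts. They are RefSeq sequence of the build GRCr8, on the minus strand, at chr19:10832976-10833225 for Mt1, chr19:10838709-10838958 for Mt2A and chr19:10856081-10856330 for Mt3. Capitals mark matches on either strand to this core, searched as TGCACNC and TGCGCNC, and to the core of the antioxidant response element, through which Nrf2 acts, searched as TGACNNNGC. Matches that overlap run together.
Mt1: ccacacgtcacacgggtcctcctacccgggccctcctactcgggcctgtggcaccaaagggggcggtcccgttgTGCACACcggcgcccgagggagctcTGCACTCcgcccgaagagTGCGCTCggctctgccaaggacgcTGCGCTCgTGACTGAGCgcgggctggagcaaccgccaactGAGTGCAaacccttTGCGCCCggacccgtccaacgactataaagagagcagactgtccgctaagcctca
Mt2A: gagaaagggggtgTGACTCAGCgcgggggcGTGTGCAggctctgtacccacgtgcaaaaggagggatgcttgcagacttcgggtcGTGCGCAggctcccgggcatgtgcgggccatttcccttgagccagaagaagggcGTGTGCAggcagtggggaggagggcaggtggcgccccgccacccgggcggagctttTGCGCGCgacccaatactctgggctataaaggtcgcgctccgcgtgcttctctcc
Mt3: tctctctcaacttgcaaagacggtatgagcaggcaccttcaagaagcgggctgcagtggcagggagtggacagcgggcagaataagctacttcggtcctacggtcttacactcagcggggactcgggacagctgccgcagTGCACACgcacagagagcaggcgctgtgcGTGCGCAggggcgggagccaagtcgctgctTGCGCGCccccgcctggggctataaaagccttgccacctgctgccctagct
The metal response element core was found 6 times before Mt1, 4 times before Mt2A and 3 times before Mt3. Among all 27457 promoters of this length in the table, 21.2% held at least 1 such core and 1.22% held 3 or more. The antioxidant core was found 1 time before Mt1 and 1 time before Mt2A and was not in this window of Mt3, and 10.2% of all promoters held it. These matches describe the letters and do not show binding.

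**Figure D1:**
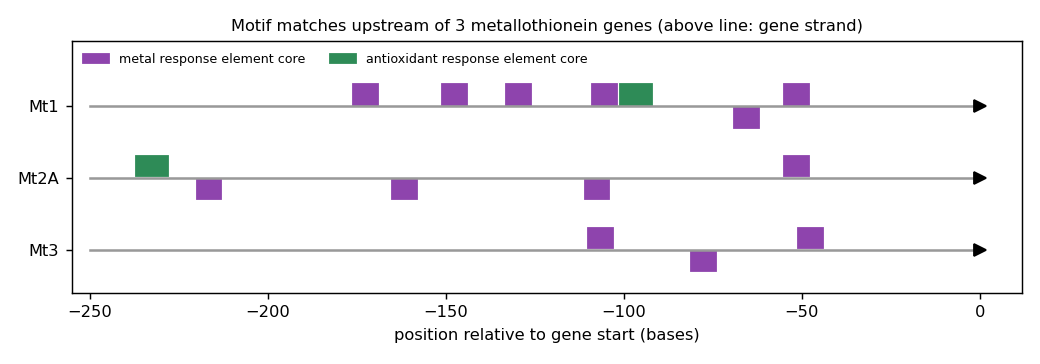
Positions of motif matches in the 250 bases before the start of Mt1, Mt2A and Mt3, with the gene start at 0 on the horizontal axis (bases). Purple boxes are metal response element cores and green boxes antioxidant response element cores, above the line for the gene's own strand and below it for the other. Mt1 has 6 purple boxes, Mt2A 4 and Mt3 3.

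Both metallothioneins that could be tested were lower on the ketogenic diet. Mt3 had a level of 11.005 at the lowest, 11.06 at the median and 11.15 at the highest of the 6 control arrays, and of 10.74, 10.83, 10.76, 10.65 and 10.86 on ketogenic replicates 1 to 5. Every ketogenic array lay below every control array. The difference was -0.30 (SE 0.047, limma adjusted p = 0.00239), from 11.07 ± 0.056 (SD, n = 6) to 10.77 ± 0.084 (SD, n = 5), a 1.23-fold lower signal. Mt2A, a metallothionein made in many tissues, lay between 9.58 and 9.91 on control arrays with a median of 9.64, and at 9.33, 9.34, 9.61, 9.32 and 9.25 on ketogenic arrays. Replicate 3 lay within the control range and the other 4 ketogenic arrays lay below it. The difference was -0.31 (SE 0.076, limma adjusted p = 0.0163), and -0.37 without ketogenic replicate 3.

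Both metallothionein calls held in all 11 fits with 1 array left out, with Mt3 at -0.33 to -0.27 and Mt2A at -0.37 to -0.27. They were smaller under the other scalings of the arrays. Without normalization between arrays Mt3 had a difference of -0.18 (limma adjusted p = 0.0452) and Mt2A of -0.19 (0.0776). Scaled to the 75th percentile they had differences of -0.14 (adjusted p = 0.105) and -0.16 (0.149). When both RNA quality ratios entered the fit, Mt3 had a difference of -0.39 (adjusted p = 0.199) and Mt2A of -0.16 (0.905). The actin ratio did not overlap between diets, so this fit cannot tell the part of RNA quality in these differences from that of diet. The probe set of Mt1, the third gene of the cluster, was at the floor on 10 of the 11 arrays and was not tested.

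Metallothioneins are made by astrocytes and by cells of the choroid plexus and meninges, so their markers are given here. Over all genes 8.04% were called lower and 8.85% higher, the shares to set beside each marker list in this report. Of 11 measured astrocyte markers 2 were called lower, Gfap, an intermediate filament, at -0.39 and Aqp4, a water channel, at -0.33, and 0 higher. Fgfr3 at 0.25 (limma adjusted p = 0.0724), Slc1a3 at 0.23, Gja1 at 0.12 and Aldoc at 0.028 lay the other way, and the rest were negative. The astrocyte median was -0.065, turning to 0.068 without normalization and 0.10 scaled to the 75th percentile, and the log2 summed level was 13.59 to 13.69 on control and 13.51 to 13.69 on ketogenic arrays. Of the 11 listed choroid plexus markers 8 were bright enough to be tested, of which 3 were called lower and 0 higher (median -0.40), with a log2 summed level of 9.95 to 11.42 on control and 9.50 to 10.39 on ketogenic arrays. Among these calls Cldn2, a tight junction protein, was tested only through its control arrays, with means of 5.66 and 4.98 about the filter level of 5.17. Of 10 listed markers of meninges and fibroblasts 9 were tested, of which 2 were called lower and 0 higher (median -0.50), with a log2 summed level of 10.43 to 11.92 on control and 9.91 to 11.27 on ketogenic arrays. Of 12 listed markers of hippocampal neurons 10 were tested, of which 2 were called higher and 0 lower (median 0.050). Their log2 summed level was 13.225 to 13.30 on control and 13.28 to 13.48 on ketogenic arrays. The part of any of these cells in the metallothionein differences was not tested, and in a bulk sample fewer cells of a type and less RNA per cell cannot be told apart.

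Genes of zinc and copper handling outside the set are given beside the metallothioneins. Of 13 measured genes 5 were called lower and 1 higher, with a median difference of -0.22. Over all 8397 genes, each by its brightest probe set, 16.9% were called, 8.04% lower and 8.85% higher, and the median was -0.0032. Mtf1, the metal-sensing activator of some metallothionein genes, was the higher one. It lay between 6.76 and 7.26 on control arrays with a median of 6.88, and at 7.54, 7.16, 7.13, 7.37 and 7.12 on ketogenic arrays. Control replicate 6 was the 1 control array inside the ketogenic range. The difference was 0.35 (SE 0.11, limma adjusted p = 0.0410), at 0.27 and 0.30 under the other scalings, where it was not called.

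Slc30a3, which loads zinc into synaptic vesicles, lay at 9.99 to 10.27 on control arrays with a median of 10.07 and at 9.85, 9.69, 9.99, 9.92 and 9.86 on ketogenic arrays, so that replicate 3 alone reached the control range. The difference was -0.22 (SE 0.063, limma adjusted p = 0.0307), and -0.095 and -0.061 under the other scalings, where it was not called. Slc39a4, a zinc importer, lay at 5.74 to 6.44 on control arrays with a median of 6.17 and at 5.01, 5.29, 6.09, 5.77 and 4.70 on ketogenic arrays. Replicates 3 and 4 lay within the control range and the other 3 below it, with a difference of -0.77 (SE 0.22, adjusted p = 0.0295), a 1.71-fold lower signal. Slc39a14, which imports zinc, iron and manganese, had a difference of -0.28 (adjusted p = 0.0485), with all ketogenic arrays, at 7.03 to 7.47, below the control arrays, at 7.50 to 7.70. Atp7b, a copper-exporting pump, had one of -0.43 (adjusted p = 0.0217), with all ketogenic arrays, at 6.57 to 7.23, below the control arrays, at 7.26 to 7.45.

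Ccs, the chaperone that hands copper to Sod1, lay at 7.37 to 7.60 on control arrays and at 6.83, 7.28, 7.63, 7.12 and 6.90 on ketogenic arrays. Ketogenic replicate 3 was above all controls and the other 4 were below them. The difference was -0.37 (limma adjusted p = 0.0486), and -0.49 without that array (adjusted p = 0.00262). Among the 11 fits with 1 array left out, Mtf1 was called in 3, Slc30a3 in 5, Slc39a4 in 6, Slc39a14 in 2, Atp7b in 8 and Ccs in 1. Slc30a1, a zinc exporter that Mtf1 also controls, was not called, at -0.27 (adjusted p = 0.0729), nor was the copper importer Slc31a1, at -0.10. Of the uncalled genes of this list that lay the other way, the zinc importer Slc39a1 was at 0.38 (adjusted p = 0.0735) and Slc30a4, a zinc transporter of vesicles, at 0.32 (0.122). For Slc39a1, ketogenic replicates 1, 2 and 4 lay above all controls.

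**Figure D2:**
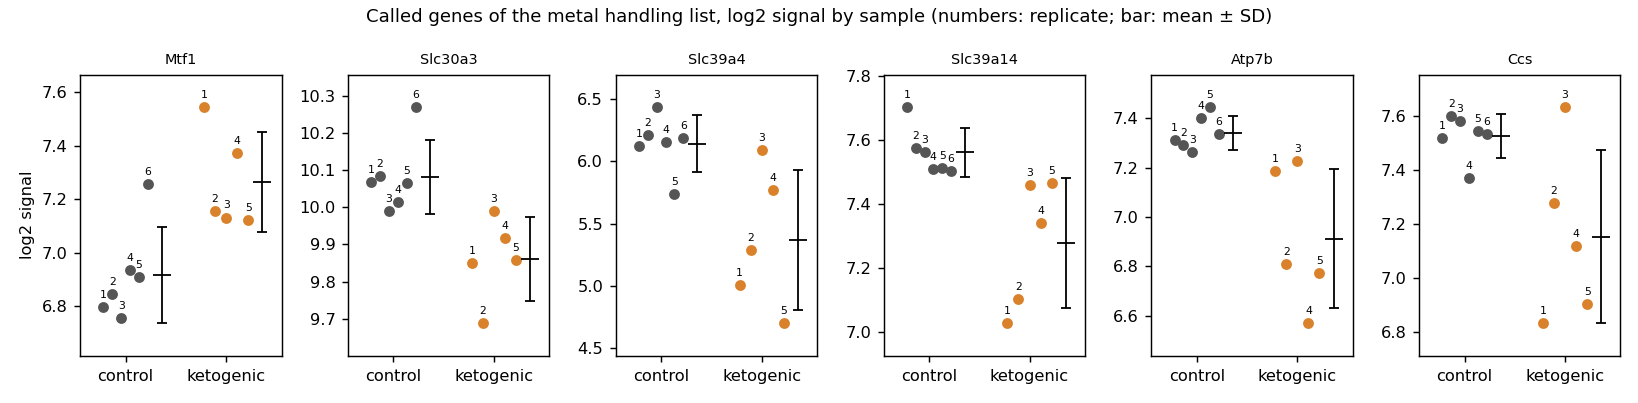
Log2 signal of the 6 called genes of the metal handling list in each sample, with the vertical axis fitted to each gene. Points are samples numbered by replicate, grey for control and orange for ketogenic diet, and the bar at the right of each group is the mean ± SD. Mtf1 is higher on the ketogenic diet and the other 5 are lower, with ketogenic replicate 3 at 7.63 for Ccs, above the controls, and at 6.09 for Slc39a4, among them.

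Of the superoxide dismutases and catalase 1 of 4 was called, against 16.5% of the array. Sod3, the form secreted to the extracellular matrix, lay between 7.07 and 7.50 on control arrays with a median of 7.38, and at 6.78, 6.82, 7.36, 6.95 and 6.92 on ketogenic arrays. Ketogenic replicate 3 lay among the controls and the other 4 lay below them. The difference was -0.36 (SE 0.11, limma adjusted p = 0.0382), a 1.29-fold lower signal. It was called in 2 of the 11 fits with 1 array left out, those without control replicate 5 (-0.42) and without ketogenic replicate 3 (-0.46), and was -0.17 (adjusted p = 0.949) with both RNA quality ratios in the fit. The call was also lost without the filter on dim probe sets. Sod3 is known from vessel walls. Of 5 measured vascular markers 1 was called lower and 0 higher (median -0.22), with a log2 summed level of 9.46 to 9.67 on control and 9.11 to 9.52 on ketogenic arrays, and their part in the Sod3 difference was not tested.

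Sod1, the abundant copper-zinc enzyme of the cytosol, lay at 9.81 to 10.03 on control and 9.87 to 10.04 on ketogenic arrays, and the groups overlapped. Its difference was 0.048 (95% interval -0.064 to 0.16, limma adjusted p = 0.549), and it was called higher at 0.20 when arrays were scaled to the 75th percentile. Sod2, the manganese enzyme of mitochondria, had a difference of 0.043 (95% interval -0.16 to 0.25). Cat, the peroxisomal enzyme that splits hydrogen peroxide, lay at 7.29 to 7.78 on control arrays with a median of 7.64 and at 8.16, 7.81, 7.46, 7.76 and 7.90 on ketogenic arrays. Replicates 3 and 4 overlapped the controls and the other 3 lay above them. The difference of Cat was 0.22 (SE 0.11, adjusted p = 0.182), and 0.31 without ketogenic replicate 3 (adjusted p = 0.0358).

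No glutathione peroxidase was called by limma, and 2 of the 6 tested had an unadjusted p under 0.05, against 33.3% of the array. Gpx4, which removes lipid peroxides from membranes and so holds off ferroptosis, lay at 9.99 to 10.25 on control and 9.87 to 10.18 on ketogenic arrays, with a difference of -0.11 (95% interval -0.26 to 0.035) that turned to 0.024 and 0.058 under the other scalings. Gpx1, the cytosolic enzyme, had a difference of 0.048 (95% interval -0.20 to 0.30), and of -0.24 with both RNA quality ratios in the fit. Gpx3, the secreted plasma form, lay at 7.57 to 7.87 on control arrays with a median of 7.70 and at 7.49, 7.39, 7.54, 7.41 and 7.67 on ketogenic arrays. Replicate 5 alone reached the control range. The difference of Gpx3 was -0.21 (SE 0.080, adjusted p = 0.0890), and it was called at -0.24 without normalization between arrays. Gpx2, best known from gut epithelium, had a difference of -0.29 (SE 0.13, adjusted p = 0.148) and was called under both other scalings, at -0.48 and -0.45. Gpx7 and Gpx8, of the endoplasmic reticulum, had differences of -0.091 and -0.13, and Gpx6 was too dim to be tested.

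Of the peroxiredoxins and sulfiredoxin limma called 0 of 6, with 1 at an unadjusted p under 0.05, against 33.3% of the array. That was Prdx3, the peroxiredoxin of mitochondria, at 7.56 to 7.78 on control arrays with a median of 7.68 and at 7.77, 7.91, 7.84, 7.93 and 7.88 on ketogenic arrays. Replicate 1 alone reached the control range and the other 4 lay above it. The difference of Prdx3 was 0.19 (SE 0.066, adjusted p = 0.0559), positive in all its alternatives at 0.17 to 0.27 and called in 4 of 23 of them. Prdx2, the cytosolic form that is also a major protein of red cells, lay at 9.81 to 10.13 on control and 9.78 to 10.05 on ketogenic arrays, with a difference of -0.044 (95% interval -0.18 to 0.093). Of 5 measured red cell genes 4 were called lower and 1 higher, with a log2 summed level of 10.37 to 10.81 on control and 8.94 to 9.21 on ketogenic arrays, and their part in the Prdx2 difference was not tested. Of the lower ones Alas2, the erythroid enzyme of haem synthesis, was tested only through its control arrays, with means of 6.03 and 4.95 about the filter level of 5.17. Prdx4, of the secretory pathway, had a difference of 0.064, Prdx5, of several organelles, 0.074, and Prdx6, which repairs oxidised phospholipids, -0.12. Srxn1, which restores over-oxidised peroxiredoxins and is a known Nrf2 target, had a difference of 0.12 (95% interval -0.072 to 0.32).

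In the thioredoxin system 1 of 7 probe sets was called, against 16.5% of the array. Txnrd1, which reduces cytosolic thioredoxin with NADPH, is measured by 2 probe sets. The called one lay at 8.39 to 8.55 on control arrays with a median of 8.50 and at 8.27, 8.32, 8.43, 8.18 and 8.30 on ketogenic arrays. Ketogenic replicate 3 alone overlapped the controls. The difference was -0.19 (SE 0.061, limma adjusted p = 0.0472), called in 1 of the 11 fits with 1 array left out, that without ketogenic replicate 3 (-0.22). It was not called at -0.16 without normalization between arrays (adjusted p = 0.0654), at -0.13 scaled to the 75th percentile (0.137), without a variance trend, or with either set of covariates. The other probe set of Txnrd1 had a difference of -0.011 (adjusted p = 0.936), and the mean of both -0.10 (adjusted p = 0.250). The promoter of Txnrd1 is shown because it holds the antioxidant response element core, which 10 of the 48 member promoters in the table hold, or 20.8%, against 10.2% of all promoters. It is RefSeq sequence of the build GRCr8 at chr7:22755905-22756154, minus strand, with the core, on the opposite strand, in capitals.
Txnrd1: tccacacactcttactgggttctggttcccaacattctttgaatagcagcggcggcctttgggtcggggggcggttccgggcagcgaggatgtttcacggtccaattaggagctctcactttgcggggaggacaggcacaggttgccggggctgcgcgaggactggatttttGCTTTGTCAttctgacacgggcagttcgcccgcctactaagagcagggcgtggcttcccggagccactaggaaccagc
Txnrd2, the mitochondrial reductase, had a difference of 0.14, and Txnrd3 one of -0.098. Txn1 and Txn2, the cytosolic and mitochondrial thioredoxins, had differences of 0.055 (95% interval -0.069 to 0.18) and 0.094 (95% interval -0.067 to 0.25), and Txn1 was called higher at 0.21 when arrays were scaled to the 75th percentile. Txnip, which binds thioredoxin and is induced by glucose, spread widely within both groups, at 6.88 to 7.74 on control and 7.02 to 7.85 on ketogenic arrays, with a difference of 0.0035 (95% interval -0.34 to 0.34).

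Of the glutaredoxins, which use glutathione to reduce protein disulfides, 1 of 6 probe sets was called, against 16.5% of the array. The called probe set of Glrx lay between 7.29 and 7.71 on control arrays with a median of 7.49, and at 7.94, 7.90, 7.82, 7.92 and 7.87 on ketogenic arrays. Every ketogenic array lay above every control array. The difference was 0.38 (SE 0.080, limma adjusted p = 0.00902), a 1.30-fold higher signal. It was called in all 11 fits with 1 array left out, at 0.34 to 0.42, and under both other scalings, and was 0.24 (adjusted p = 0.864) with both RNA quality ratios in the fit and 0.33 with the spike-in level in it, neither of which was a call. The other Glrx probe set lay at 7.95 to 8.63 on control arrays and at 8.54, 7.59, 8.45, 8.44 and 8.53 on ketogenic arrays, where replicate 2 was far below the rest. Its difference was 0.048 (SE 0.17, adjusted p = 0.866), and the mean of both probe sets had one of 0.21 (adjusted p = 0.166), so the call rests on 1 of 2 probe sets. Glrx2, a mitochondrial form, had differences of -0.039 and -0.068 in its 2 probe sets, Glrx3 one of -0.00064, and Glrx5, which takes part in iron-sulfur cluster assembly, one of 0.0030.

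**Figure D3:**
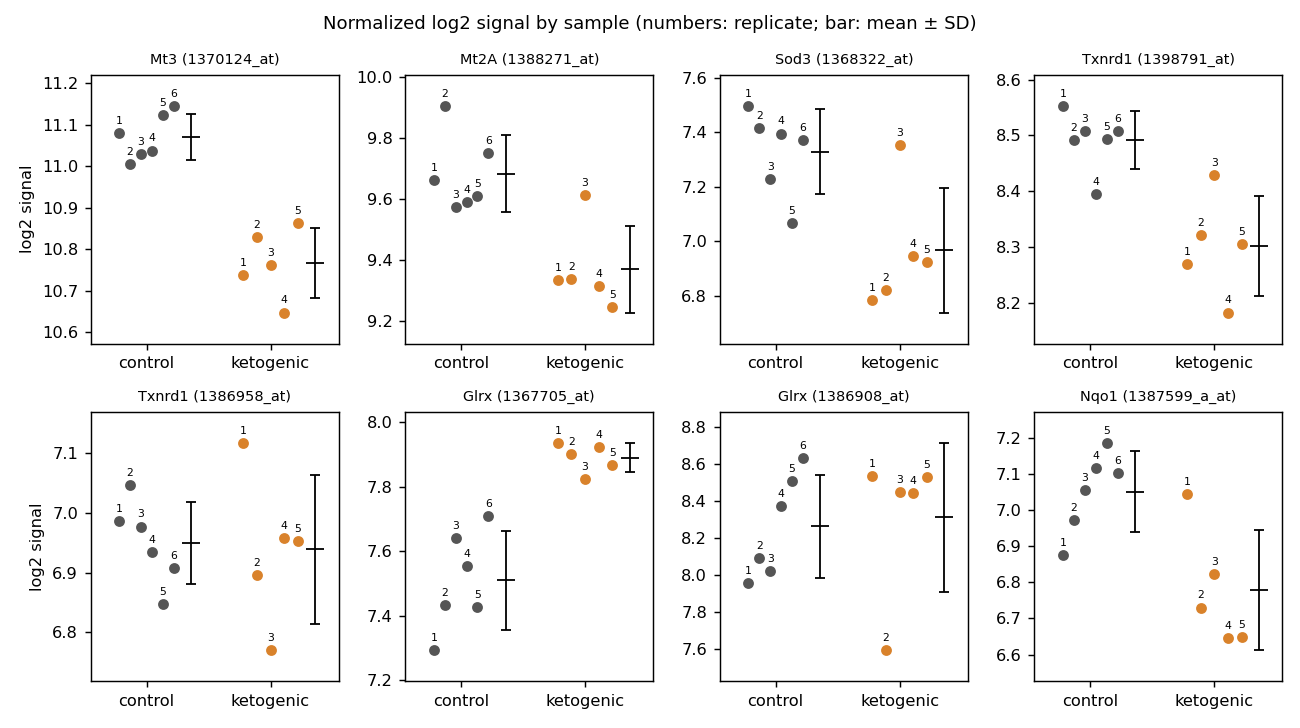
Log2 signal by sample for the 5 called probe sets, for the other probe sets of Txnrd1 and Glrx, and for Nqo1, with the vertical axis fitted to each panel. Points are samples numbered by replicate, grey for control and orange for ketogenic diet, and the bar at the right of each group is the mean ± SD. Mt3 and the called Glrx probe set show no overlap between diets, and ketogenic replicate 3 lies inside the control range for Mt2A, Sod3 and the called Txnrd1 probe set.

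Glutathione synthesis and recycling gave 0 calls among 4 tested probe sets (limma), with 2 at an unadjusted p under 0.05, against 33.3% of the array. These were the pair for Gclc, the catalytic subunit of the rate-limiting ligase, and they had opposite signs. One had a difference of -0.24 (SE 0.085, adjusted p = 0.0625), with control arrays at 7.11 to 7.44 and ketogenic arrays at 6.89 to 7.18. The other had a difference of 0.30 (SE 0.12, adjusted p = 0.0999), with control arrays at 5.82 to 6.08 and ketogenic arrays at 5.89 to 6.55. The first was called lower under both other scalings, and also without control replicate 1 or without ketogenic replicate 3. The second was called higher without ketogenic replicate 1, and with array weights both were called, in opposite directions. Their mean had a difference of 0.031, so the data give Gclc no single direction. Gclm, the regulatory subunit of the same ligase, had a difference of 0.26 (95% interval -0.085 to 0.61), and Gss, which completes the tripeptide, one of 0.34 (95% interval -0.23 to 0.92). With both RNA quality ratios in the fit these turned to -0.090 and -0.36, and Gclm was at 0.067 without normalization between arrays. Gss passed the filter only through its ketogenic values. Gsr, the reductase that regenerates glutathione, was too dim to be tested, with control arrays at 2.57 to 5.47 and ketogenic arrays at 5.04 to 5.68.

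Of the glutathione transferases 14 of 19 could be tested and limma called 0, with 2 at an unadjusted p under 0.05, against 33.3% of the array. Gsta4, which conjugates aldehydes made by lipid peroxidation, came nearest. It lay at 6.12 to 6.73 on control arrays with a median of 6.42 and at 6.64, 6.999, 7.17, 6.74 and 6.51 on ketogenic arrays, where replicates 2, 3 and 4 lay above all controls. Its difference was 0.39 (SE 0.13, adjusted p = 0.0571), called in 3 of 23 alternatives. Gstm5 had a difference of -0.26 (SE 0.11, adjusted p = 0.120), and its ketogenic replicate 3, at 8.66, lay above all controls. Without that array the difference of Gstm5 was -0.38 (adjusted p = 0.00629). Other mu-class genes of the same cluster on chromosome 2 differed in sign, with Gstm1 at 0.026, Gstm7 at 0.12 and Gstm2 at -0.23. Gstm7 was called higher under both other scalings of the arrays. Gstp1, the pi-class enzyme, had a difference of -0.037, and the membrane-bound Mgst1, Mgst2 and Mgst3 had differences of 0.22, -0.26 and -0.094. Gsta3, Gstm3, Gstm4, Gstt1 and Gstt2 were too dim to be tested, with Gstt1 at the floor on all 11 arrays. Gstm4 lay at 2.33 to 3.39 on control arrays and at 3.39, 4.26, 2.35, 5.64 and 5.97 on ketogenic arrays. Replicates 2, 4 and 5 lay above all controls.

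The Nrf2 axis gave 0 calls among 4 probe sets (limma), and 2 had an unadjusted p under 0.05, against 33.3% of the array. Nfe2l2, the gene for Nrf2 itself, lay at 6.01 to 6.71 on control arrays with a median of 6.44 and at 6.80, 6.70, 6.70, 6.76 and 6.66 on ketogenic arrays, of which 2 lay above all controls. Its difference was 0.31 (SE 0.11, adjusted p = 0.0680). Nqo1, a quinone reductase widely used as a readout of Nrf2, lay at 6.88 to 7.19 on control arrays with a median of 7.08 and at 7.05, 6.73, 6.82, 6.65 and 6.65 on ketogenic arrays. Replicate 1 overlapped the controls and the other 4 lay below them. The difference of Nqo1 was -0.27 (SE 0.093, adjusted p = 0.0586), and it was called lower in 6 of 23 alternatives, both other scalings among them. Nfe2l2 and Nqo1 thus had opposite signs and neither passed the threshold. Keap1 had differences of 0.13 and -0.0044 in its 2 probe sets. Of 16 measured genes of the Nrf2 response outside the set limma called 0, with 3 at an unadjusted p under 0.05, or 18.8%, against 33.9% of all genes. Their median was 0.074. Hmox1, the inducible haem oxygenase, was at -0.20 (adjusted p = 0.236), and Sqstm1, an adaptor that binds Keap1, at 0.15 (0.233).

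Other genes around the set were described in the same way, beside 16.9% of all genes called, 8.85% higher and 8.04% lower. The calls on these lists and the metal handling list together depended on the processing. They were fewer without the filter on dim probe sets or without a variance trend, and more under the other scalings, with the counts given below. In glutathione turnover and transport 2 of 14 were higher and 1 was lower. The lower one was Chac1, which degrades glutathione in the cytosol, at 7.87 to 8.19 on control arrays with a median of 7.92 and at 7.70, 7.55, 7.82, 7.38 and 7.61 on ketogenic arrays. No ketogenic array reached the controls, and the difference of Chac1 was -0.37 (SE 0.090, limma adjusted p = 0.0170), called in 20 of 23 alternatives. Oplah, which returns 5-oxoproline to glutamate, was higher by 0.42 (adjusted p = 0.0359), with all ketogenic arrays above the controls. Esd, which hydrolyses a glutathione conjugate of formaldehyde, was higher by 0.50 (adjusted p = 0.0497), with ketogenic replicate 3 at 7.77 among the controls. In NADPH supply 1 of 9 was called, Idh2, the mitochondrial isocitrate dehydrogenase that makes NADPH, higher by 0.29 (adjusted p = 0.0230), with ketogenic arrays at 7.81 to 8.01 and control arrays at 7.46 to 7.76. Of repair and other redox proteins 1 of 17 was called, Ero1b, an oxidase that forms disulfides in the endoplasmic reticulum. Ero1b passed the filter at a level of 5.17 only through its ketogenic arrays (mean 6.28, against 4.94 on control arrays), so its values are a description. They lay at 4.26 to 6.01 on control arrays and at 6.41, 6.50, 5.57, 6.66 and 6.27 on ketogenic arrays, of which replicate 3 lay within the control range. Of oxidant sources 1 of 8 was called, Rac2, which activates the phagocyte oxidase, at -0.82 (adjusted p = 0.0460), with ketogenic replicate 3 at 6.48 among the controls. Of 8 measured microglial markers 2 were called lower and 1 higher (median -0.12), with a log2 summed level of 10.46 to 10.53 on control and 10.36 to 10.66 on ketogenic arrays, and their part in the Rac2 difference was not tested.

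**Figure D4:**
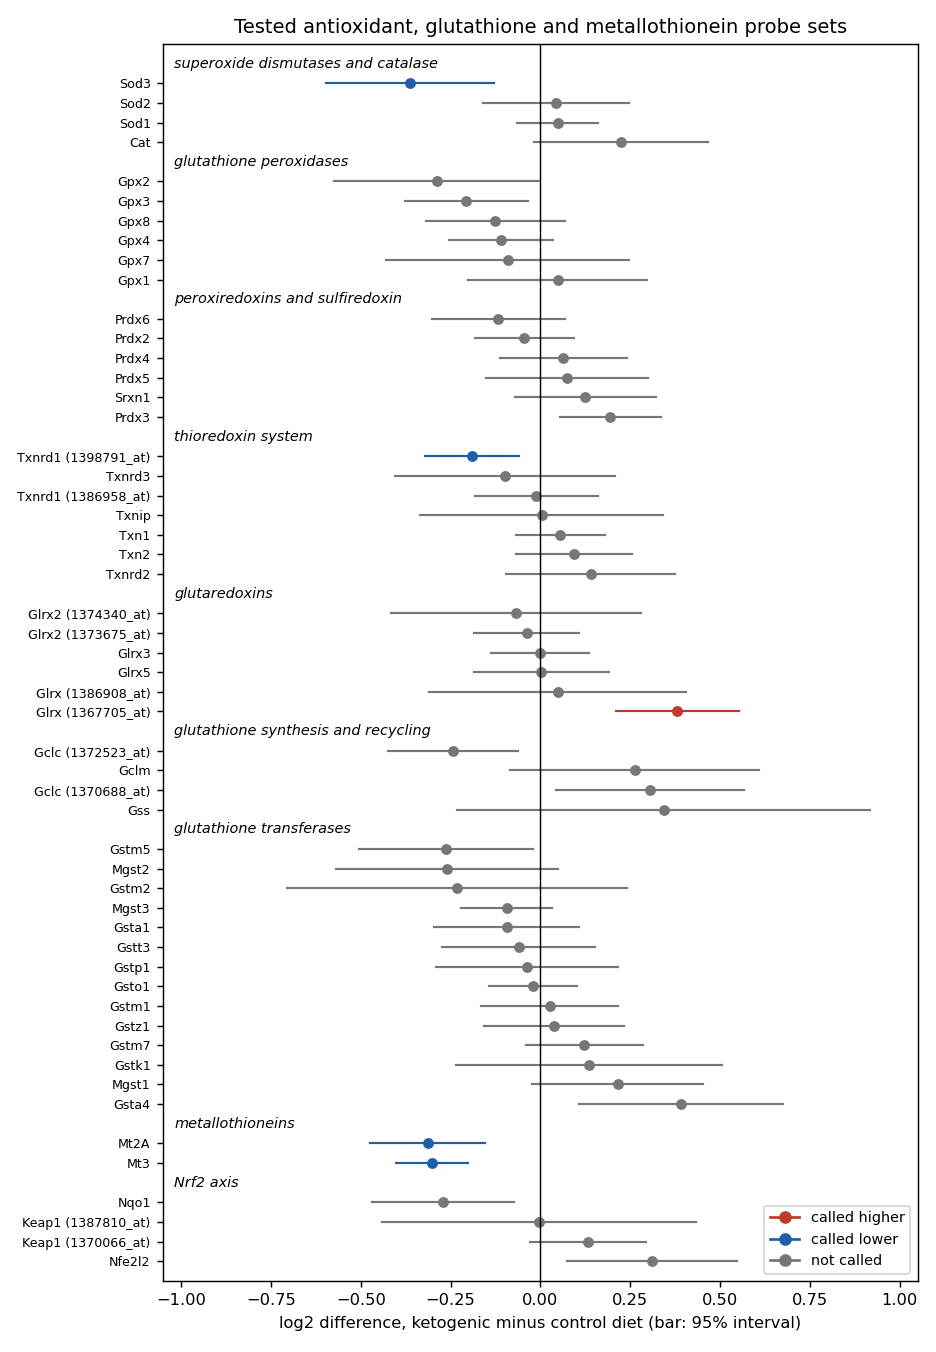
Log2 difference, ketogenic minus control diet, of each of the 53 tested probe sets on the horizontal axis, grouped by role, with bars for the 95% interval. Red marks the 1 probe set called higher, blue the 4 called lower and grey the 48 not called, 25 of which are positive and 23 negative.

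In the reported setting, the 95% interval of the 48 probe sets that were not called lay inside a 1.5-fold change in either direction for 44. It reached past that for 4, Gclm, Gss, Gsta4 and Gstm2. These intervals do not cover the choice of scaling, under which Gpx2 moved from -0.29 to -0.48 and Gpx7 from -0.091 to -0.29 without normalization between arrays. A p above the threshold does not show that the diets had the same level of these transcripts.

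The number of members called differed between settings, as did the number over the array. Without normalization between arrays 2 members were higher and 6 lower (23.6% of the array called), and with arrays scaled to the 75th percentile 5 were higher and 4 lower (22.9%). With no filter on dim probe sets the members counted 2 higher and 3 lower (8.84%), and with the dimmer 50% left out 2 and 4 (20.6%). Other variance models gave 1 and 3 without a trend (13.5%) and 1 and 4 with a robust fit (16.2%). Array weights gave 3 and 7 (26.4%), the replicate number as a block 1 and 2 (15.3%), the spike-in level as a covariate 0 and 5 (11.4%), and an adjusted p under 0.1 5 and 7 (25.8%). Leaving out ketogenic replicate 3 gave 3 and 7 (26.6%), and leaving out ketogenic replicate 4 gave 1 and 2 (6.76%). When both RNA quality ratios entered the fit, limma called 0 members and 0.0504% of the array.

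**Figure D5:**
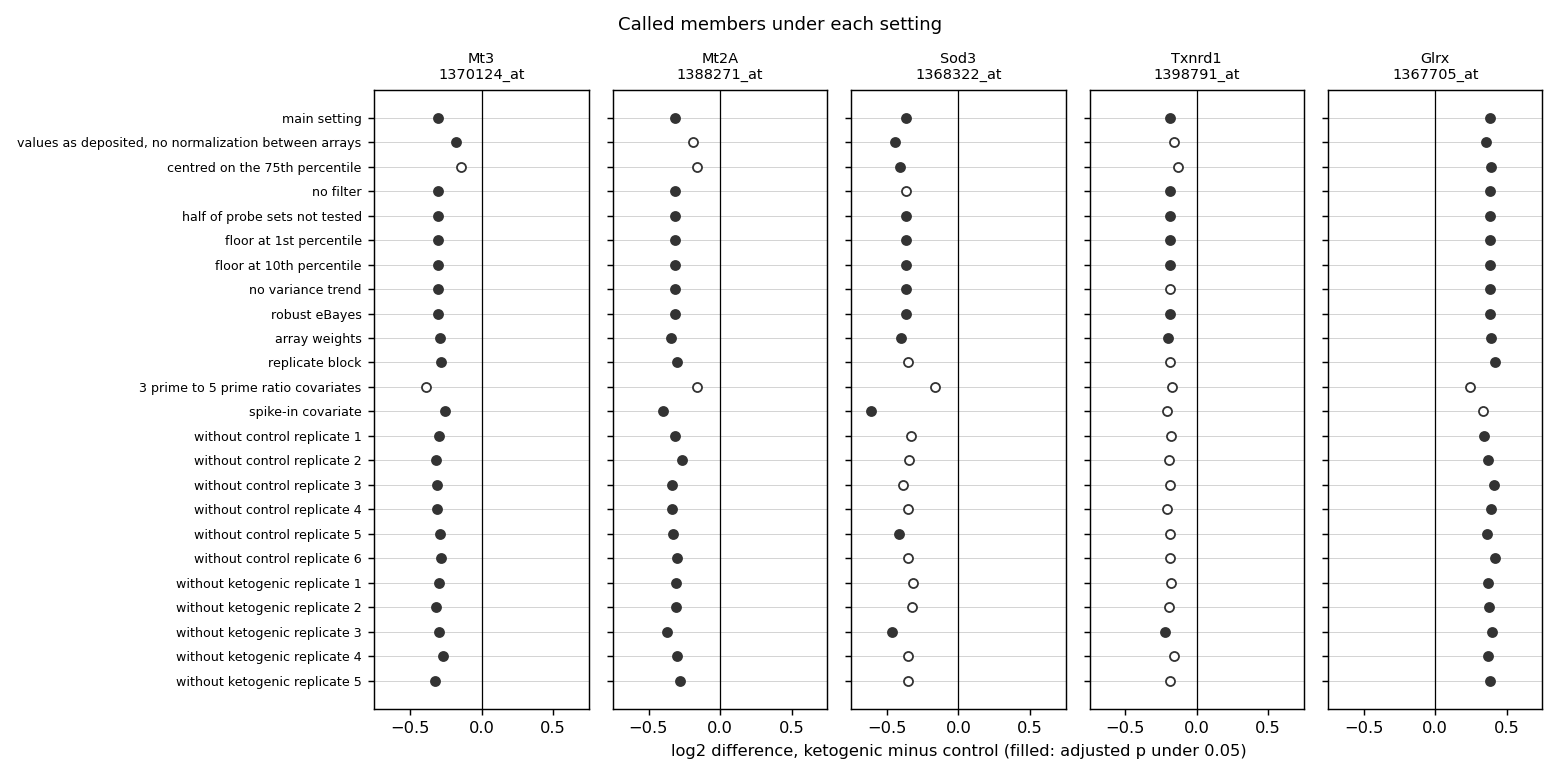
Log2 difference, ketogenic minus control diet, of the 5 called probe sets (columns) under each processing setting (rows), filled where the adjusted p was under 0.05. The sign is the same at every setting shown. Mt3, Mt2A and Glrx are filled in all 11 rows that leave out 1 array, and Sod3 and Txnrd1 in 2 and 1 of them.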

How the data were processed

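RNA of 11 rat hippocampus samples was hybridised to 1 array each, and the deposited values are linear intensities for 15923 probe sets, 1 column per array. The authors' steps from scanned array to intensity are not stated in the labels. On each array the mean after trimming 2% at each end was 150.023 to 150.028, and the median intensity was 79.9 to 94.4.

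Intensities were quantile normalized, values below percentile 5 of all pooled values (a signal of 5.02) were raised to it, and log2 was taken. The 57 control probe sets and the 25% of the rest with the lowest mean were left out. Diets were compared on the remaining 11899 by limma 3.58.1 under R 4.3.3, using lmFit, then eBayes with its trend option, with no covariate and Benjamini-Hochberg adjustment. Measures of whole arrays were compared by permutation over all 462 splits (exact, two-sided), where 0.00216 is the smallest possible p, adjusted over 4 measures. The fit was also run on simulated data with independent noise. That run held none of the differences between whole arrays seen here, so it does not bear on the calls.

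Of 13101 annotated probe sets 12789 had 1 symbol and 312 several, which were left out, and 2771 of the array were unnamed here. Current symbols came from a RefSeq gene table (GRCr8), where all 61 member probe sets were found. Genes outside the set were represented by their brightest tested probe set. Promoters of 48 of the 56 member genes were in the RefSeq promoter table. Prdx1 had no probe set with a single symbol.

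The members, the pathway and marker lists and the alternatives were chosen with earlier results of these data known. The rule named every called member, a list of well-known members whether called or not, the other probe sets of these, and called pathway genes. Other names were added after their values were seen. Alternatives were 2 other scalings, other filters, floors and variance models, array weights, the replicate number as a block, RNA quality or spike-in covariates, a threshold of 0.1, the mean of a gene's probe sets, and leaving out each array. The labels number replicates in both diets and do not say that the numbers pair samples.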

Additional observations from a re-analysis of the deposited data

Results flagged for a closer look

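In 9 of 114 groups of values, 1 sample lay far from the other samples of its group by Dixon's test, where chance gives about 1 in 20, or 5.7 here. Ketogenic replicate 3 was that sample in 4 of them. It was high for Mt2A, at 9.61 against 9.25 to 9.34 on the other ketogenic arrays, for Sod3, at 7.36 against 6.78 to 6.95, and for the spike-in level, at 8.91 against 8.51 to 8.62, and low for Mgst1, at 5.91 against 6.25 to 6.36. Ketogenic replicate 2 was low for Gstp1, at 8.20 against 8.81 to 8.99, and for the Glrx probe set that was not called, at 7.59 against 8.44 to 8.54. Ketogenic replicate 1 was high for Prdx4, at 7.73 against 7.35 to 7.41, and low for Mgst3, at 9.55 against 9.71 to 9.75. Control replicate 4 was low for a Keap1 probe set, at 5.55 against 5.74 to 5.82 on the other control arrays.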

How the results depend on the processing

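Counts below are given as higher and lower on the ketogenic diet, against 1 and 4 members and 5 and 7 pathway genes in the reported setting. Values without normalization between arrays gave 2 and 6 members and 5 and 14 pathway genes, scaling to the 75th percentile 5 and 4 members and 11 and 9 pathway genes, no filter 2 and 3 members and 2 and 2 pathway genes, leaving out the dimmer 50% 2 and 4 members and 3 and 5 pathway genes, no variance trend 1 and 3 members and 3 and 3 pathway genes, the spike-in covariate 0 and 5 members and 4 and 6 pathway genes, array weights 3 and 7 members and 9 and 12 pathway genes (3136 probe sets over the array), and a threshold of 0.1 5 and 7 members and 9 and 12 pathway genes (3070). With both RNA quality ratios in the fit limma called 0 and 0 members and 0 and 0 pathway genes, and 6 probe sets over the array. Leaving out 1 array in turn gave 1 to 3 members higher and 2 to 7 lower, 0 to 10 and 1 to 11 pathway genes, and 804 to 3165 probe sets over the array, with the most over the array without ketogenic replicate 3. Leaving out control replicate 2, 3 or 5 or ketogenic replicate 1, 2, 4 or 5 lowered the count over the array more than 1.5 times. The cause of these changes was not tested, save that fewer or more probe sets enter the adjustment where the filter changes. Other floors and the robust fit kept every member call.

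With the replicate number as a block there were 1 and 2 members and 5 and 7 pathway genes, and Sod3 (adjusted p = 0.0779) and Txnrd1 (0.0846) were no longer called by limma. Deviations of arrays with the same number correlated at 0.0089 to 0.077, and 2 of 5 ketogenic arrays correlated best with the control array of their number. These correlations cannot settle whether the numbers pair samples. The 5 called members kept their sign in every alternative, while 33 of the 48 not called turned in at least 1, 11 without normalization between arrays, 12 scaled to the 75th percentile, and 14 and 14 with the RNA quality and spike-in covariates. Where a call was involved, the sign turned for Txnip under the spike-in covariate (-0.56, adjusted p = 0.0490) and for Ero1b with both RNA quality ratios in the fit (-0.062), and the cause was not tested. The number of arrays limits the precision, and 8 member probe sets were too dim to be tested.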
